A study of Ovis aries with 30 samples.

Results

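The cytokine, chemokine and receptor genes of sheep epicardial adipose tissue (EAT), the fat on the surface of the heart, were described by the 52 array probes whose gene name or description marked them as an interleukin, a chemokine, a member of the tumor necrosis factor family, or a protein that binds or signals for one of these. The 52 probes came from 15008 on the array and stood for 29 genes, of 14351 gene names and other transcript records in the design. Of these probes, 46 were found through the gene name and 6 through the description alone, and 1 further probe with a matching name was left out by the rule. The rule went by name and description, and it was set with earlier results of these data known.

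EAT had been collected from 30 animals, 1 array each: 8 Control fetuses at term, 6 CORT fetuses at term and, at 2 weeks after birth, 7 Control lambs and 9 CORT lambs. The ewes of the CORT animals received cortisol from gestational day 115, at 1 mg/kg per day without a break for fetuses and at 0.5 mg/kg per day, overnight only, for lambs, and the ewes of the Control animals received none. The offspring themselves were not treated, and the labels warn that the exposures of CORT fetuses and CORT lambs differed, so that these 2 groups are set side by side without a direct test between them. The study describes a twin pair in each group of lambs without naming the animals, and all lambs were treated as independent. As a check of the tissue, 7 of 9 adipocyte marker genes had a probe, and all 7 were well above background on every array. So were the 2 of 8 striated muscle markers with a probe, MB and TNNC2. Their mean log2 level per animal ran from 9.9 to 16.1 in Control fetuses and 10.4 to 11.9 in CORT fetuses. In Control lambs it ran from 8.2 to 12.3 and in CORT lambs from 9.0 to 12.7. The share of muscle in the samples was not tested.

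Cytokines and chemokines are small secreted proteins through which cells of the immune system, the vessel wall and fat itself influence one another by binding receptors on the target cell. Interleukin receptors signal mostly through JAK kinases and STAT factors, receptors of the interleukin 1 family through the adaptor kinase IRAK4 and NF-kappaB, and chemokine receptors through G proteins that direct cell migration. In adipose tissue they are known from resident macrophages and lymphocytes as well as from adipocytes and endothelium. In RNA of a whole tissue, fewer cells of a type and less RNA per cell cannot be told apart, and this holds for each result given here.

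The probes on which the age results rest are shown first, since their place in a transcript decides which probes of 1 gene measure overlapping RNA. Each probe is 60 bases long and is printed 5′ to 3′ as the scanner files list it, named by the base at which it starts in the transcript the array design cites. In the pairs for IL18 and IL15, capitals mark the bases that both probes of the pair share, 20 for IL18 and 16 for IL15. The IL13RA1 pair is contiguous, with capitals for the stop codon that ends the second probe. The probes for IL1RN and TNFRSF1A have no capitals.
IL18 from base 557: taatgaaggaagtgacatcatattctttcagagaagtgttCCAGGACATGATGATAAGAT
IL18 from base 597: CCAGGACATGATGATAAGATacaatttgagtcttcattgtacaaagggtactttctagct
IL15 from base 299: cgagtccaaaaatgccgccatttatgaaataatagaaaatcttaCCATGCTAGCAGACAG
IL15 from base 343: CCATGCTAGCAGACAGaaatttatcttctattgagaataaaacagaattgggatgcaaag
IL1RN from base 76: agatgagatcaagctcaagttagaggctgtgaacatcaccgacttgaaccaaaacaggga
TNFRSF1A from base 554: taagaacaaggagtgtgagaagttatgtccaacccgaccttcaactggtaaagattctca
IL13RA1 from base 1086: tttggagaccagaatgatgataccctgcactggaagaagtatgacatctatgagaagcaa
IL13RA1 from base 1146: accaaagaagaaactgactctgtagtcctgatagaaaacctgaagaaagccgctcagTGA

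Which genes were present was read from the scanner software's flag for a spot well above its background. A gene was called present in a group when 1 of its probes carried the flag on every array of that group. By this rule 13 of 29 genes were present in Control fetuses, 15 in CORT fetuses, 13 in Control lambs and 13 in CORT lambs. The share of member probes present was 34.6%, 38.5%, 36.5% and 38.5% in the same order of groups, beside 70.7%, 72%, 68.9% and 65.9% of all probes of the array. On all 30 arrays together, 10 genes had a probe present throughout, 7 had none on any array, and 12 lay between. No spot of a member was saturated.

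Among the 14 interleukins, IL3 and IL18 were present on all 30 arrays. IL18 is a cytokine of the interleukin 1 family that is stored as an inactive precursor, and IL3 is a growth factor of blood cell precursors. IL15, which sustains natural killer and memory T cells, was well above background on 29 arrays, with 1 Control fetus as the exception. IL1B, the secreted inflammatory interleukin 1, was well above background on 27 arrays, the 3 exceptions being CORT lambs. IL12A carried the flag on 7 of 8 Control fetuses, 6 of 6 CORT fetuses, 5 of 7 Control lambs and 2 of 9 CORT lambs. IL10, an anti-inflammatory cytokine, carried it on 14 arrays spread over all 4 groups.

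The remaining interleukins were seldom or never above background. IL1A was well above background on 3 arrays, all of Control fetuses. IL2 carried the flag on 2 arrays and IL4 on 1, in lambs in each case. IL5, IL6, IL7, IL12B and IL13 carried it on 0 of 30 arrays. Outside the interleukins, CCR9 and TNFSF13B, a B cell survival factor, also carried it on none. The software's laxer flag, for a spot significantly above its local background, was set for these 7 genes on 3 arrays (IL13) to 18 arrays (IL5), so that their RNA was below the stricter limit on these arrays and was not shown to be missing.

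Set out as ligands and receptors, 5 of the 6 receptor genes were above background on more arrays than any member known to bind them, apart from the CCL25 and CCR9 pair. Of the 6 receptor genes, IL13RA1, CCR3, CCR10 and TNFRSF1A were present on all 30 arrays and IL2RA on 29. IL13RA1 is a chain of the receptor for IL13 and IL4, ligands seen on 0 arrays and on 1 array. IL2RA is a chain of the high-affinity receptor for IL2, a ligand seen on 2 arrays. TNFRSF1A is the main receptor of TNF, and TNF was well above background on 11 arrays. CCL28 binds CCR10 and CCR3, and it was seen on 2 arrays. The pair CCL25 and CCR9 ran the other way, with the ligand on all 30 arrays and its receptor on none. These are counts of arrays for the transcripts of 1 tissue. They depend on the signal of each probe as well as on its RNA, and levels of different probes were not set against each other. With the software's laxer flag, TNF was counted on 27 arrays, IL2 on 14, CCL28 on 10, IL4 on 7 and IL13 on 3, and these 5 receptors on 30 each.

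The other chemokines were CXCL8, which attracts neutrophils, on 29 arrays, and XCL1, a chemokine of activated T and natural killer cells, on all 30. The interleukin 1 receptor antagonist IL1RN, which blocks interleukin 1 signalling, was seen on 28 arrays, the exceptions being 1 Control lamb and 1 CORT lamb. IRAK4 and a probe named TC15051, described as a nuclear factor regulated by interleukin 3, were present on all 30. No gene was present in 1 group and above background on no array of another.

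**Figure D1:**
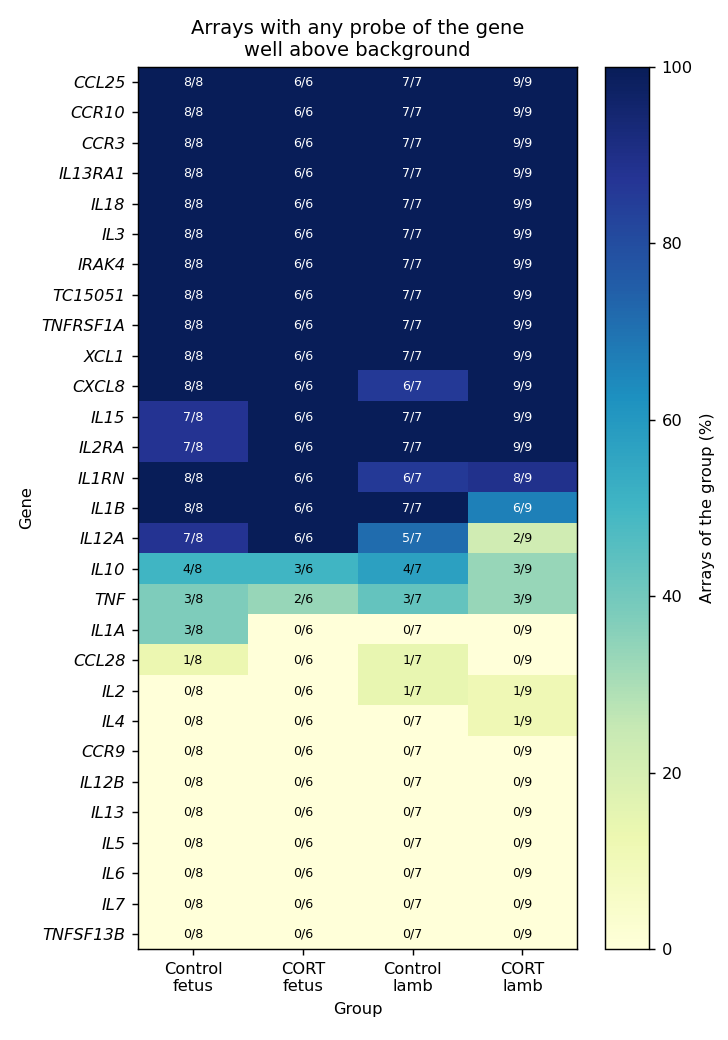
Number of arrays of each group (columns) on which any probe of a gene (rows) was well above background, over the number of arrays in the group, with colour giving the percentage. The top 10 genes are at full count in all 4 groups, the bottom 7 are at 0 in all of them, and IL1A is above background in Control fetuses only, on 3 of 8 arrays.

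Whether these genes changed between term and 2 weeks of age was asked in the untreated animals, 7 Control lambs against 8 Control fetuses. For tests, a probe had to exceed by 10% the intensity below which 95% of negative controls lay, on 6 or more arrays, which 12839 of 15008 probes and 34 of the 52 members did. At an adjusted p under 0.05, limma called 12 of 34 member probes (35.3%), 10 higher and 2 lower in lambs, where it called 42% of all tested probes, 19.7% higher and 22.4% lower. The median log2 change was 0.11 over the 34 member probes and -0.02 over all tested probes. The 2 groups did not overlap for 5 of 34 member probes, beside 16.1% of all tested probes. The share of member probes called was thus no higher than that of the array, and the account that follows is of single genes.

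IL18 rose in lambs with the highest change among the members on the main scale, though an IL15 probe exceeded it when the intensity corrected by the scanner software was used. Its log2 intensity at the probe from base 557 had a lowest, median and highest value of 6.99, 7.26 and 7.42 in Control fetuses and of 7.89, 8.18 and 8.37 in Control lambs. Every Control lamb lay above every Control fetus. The log2 change was 0.91 with a standard error (SE) of 0.08, a 1.88-fold difference (limma adjusted p = 4.5e-07). The exact two-sided permutation p was 0.000155, the smallest that the 6435 possible splits of these 15 animals can give. The overlapping probe from base 597, which shares part of the measured RNA and is not an independent replicate, gave a change of 0.78 (SE 0.07, adjusted p = 1.92e-07), again without overlap. A probe for a separate IL18 transcript record was well above background on only 3 of 7 Control lambs and 1 of 8 Control fetuses. Its change of 0.41 (SE 0.14, adjusted p = 0.0288) lost the call without Control lamb 1 or Control lamb 5, with adjusted p of 0.0622 and 0.0566.

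IL1RN was the member that fell furthest. Its log2 intensity was 7.62, 8.17 and 8.75 (lowest, median, highest) in Control fetuses and 6.53, 6.95 and 7.12 in Control lambs, again without overlap. The change was -1.24 (SE 0.15), a 2.37-fold lower intensity in lambs, with an adjusted p of 6.46e-06 and an exact permutation p of 0.000155. Its probe was well above background on all 8 Control fetuses and 6 of 7 Control lambs. IL1B, the agonist that IL1RN opposes, did not pass the test, with a log2 change of -0.04 (95% interval -0.16 to 0.07).

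TNFRSF1A rose. The log2 intensity was 7.35, 7.48 and 7.69 in Control fetuses and 7.66, 7.91 and 8.04 in Control lambs, and 6 of 7 Control lambs lay above the highest fetus. The change was 0.38 (SE 0.07, 1.3-fold, adjusted p = 0.000408, exact permutation p = 0.000466). Its ligand TNF rose by 0.26 (SE 0.07, adjusted p = 0.00741), from a median of 6.46 to one of 6.65, close to the floor of the scale. The TNF probe was well above background on only 3 of 7 Control lambs and 3 of 8 Control fetuses, and 5 of 7 lambs lay above the highest fetus.

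For IL15 the answer depended on the probe. The probe from base 299 rose from 6.33, 6.52 and 6.67 in Control fetuses to 6.73, 6.92 and 7.00 in Control lambs without overlap (change 0.37, SE 0.06, adjusted p = 0.00016), and was well above background on 2 of 8 fetuses and 7 of 7 lambs. The overlapping probe from base 343 was well above background on 0 of 8 fetuses and 3 of 7 lambs. Its lamb mean was 1.13-fold above the fetal mean when fetal values were set no lower than the dimmest level counted as well above background. That figure holds no sampling error. The fit gave a change of 0.20 (SE 0.05, adjusted p = 0.0025). The brightest IL15 probe, from base 708 of another transcript record, stood for the gene by the rule and did not pass (change 0.12, SE 0.08, adjusted p = 0.238). The fourth, from base 668, gave 0.02 (SE 0.07).

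IL2RA, IL10 and IRAK4 gave smaller or divided results. IL2RA rose at 1 of its 2 probes (0.25, SE 0.06, adjusted p = 0.0047), and the brighter probe that stood for the gene gave 0.22 (SE 0.10, adjusted p = 0.105), or 0.27 with an adjusted p of 0.0483 without Control lamb 7. IL10 rose at its brighter probe by 0.16 (SE 0.06, adjusted p = 0.0396), which was well above background on 4 of 7 lambs and 4 of 8 fetuses. That call was the least steady of those made: leaving out 1 animal ended it in 10 of 15 cases, each of Control fetuses 1 to 7 and Control lambs 1 to 3, with adjusted p from 0.0508 to 0.0847. The dimmer IL10 probe was well above background on 1 of 7 lambs and 0 of 8 fetuses, so that both groups lay mostly near background. Its change of 0.16 (SE 0.06, adjusted p = 0.0354) did not pass in 9 of 15 such cases (adjusted p from 0.0501 to 0.0715). Those were the fits without Control fetus 1, 3, 6 or 7 or Control lamb 1, 2, 4, 5 or 6. With the intensity corrected by the scanner software, the adjusted p was 0.249. IRAK4 gave 0.19 and 0.18 at its 2 probes (adjusted p = 0.065 and 0.101), and neither passed in the main fit. Of 24 alternative fits, 5 called the first probe and 5 the second. With the intensity corrected by the scanner software, the first gave 0.54 (adjusted p = 0.00501) and the second 0.22 (adjusted p = 0.35). On the main scale, the first passed without Control fetus 2 or Control lamb 1 (adjusted p of 0.0126 to 0.0245). The second passed without Control fetus 2, Control lamb 6 or Control lamb 7 (0.0365 to 0.0498).

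**Figure D2:**
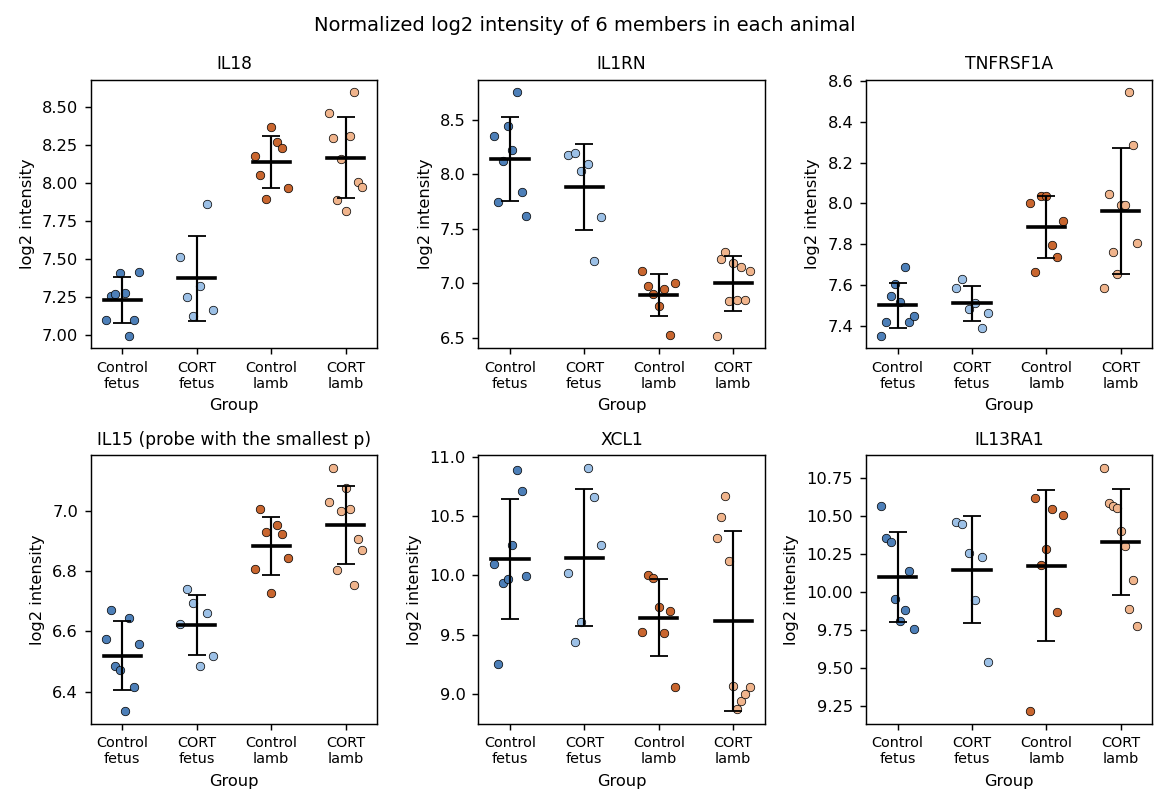
Normalized log2 intensity (vertical axis) of 6 members in each animal, by group, 1 point per animal, with the mean as a wide bar and the SD as whiskers. The IL15 panel shows the probe from base 299, picked for its smallest p with age. Every other panel shows the probe standing for the gene. IL18, IL1RN and this IL15 probe separate Control lambs from Control fetuses completely, whereas the IL15 probe standing for the gene, from base 708, overlapped. TNFRSF1A separates 6 of 7 lambs, and in XCL1 the 9 CORT lambs lie in a high set of 4 and a low set of 5.

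XCL1 passed the threshold at 1 of its 2 probes in the main fit. The probe from base 405 had log2 intensities of 9.08, 9.68 and 9.98 in Control fetuses and 8.93, 8.99 and 9.41 in Control lambs, a change of -0.49 (SE 0.13, 1.4-fold lower, adjusted p = 0.00697, exact permutation p = 0.00622), and 4 of 7 lambs lay below the lowest fetus. The probe from base 406 is shifted by 1 base and stood for the gene as the brighter, and its change of -0.50 had an SE of 0.20 (adjusted p = 0.0634). It passed in 4 of 24 alternative fits. Among these were the fit without Control fetus 2 (change -0.62, adjusted p = 0.00857) and the scanner-corrected intensity with all animals (change -0.62, adjusted p = 0.0398).

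The arrays lay on 4 slides, fetuses on slides 1 and 2 and lambs on slides 3 and 4, with both treatments on every slide, and the XCL1 probes differed from each other by slide. The probe from base 406 exceeded the probe from base 405 by a median of 0.12 on slide 1, 1.04 on slide 2, 0.88 on slide 3 and 0.10 on slide 4 on the log2 scale. The excess was over 0.5 on 0 of 7, 6 of 7, 8 of 8 and 0 of 8 arrays. The high and low CORT lambs at the probe from base 406 followed the same division, with 10.12 to 10.67 on the 4 arrays of slide 3 and 8.87 to 9.06 on the 5 arrays of slide 4. The Control lambs of the same slides differed less, with means of 9.81 on slide 3 and 9.42 on slide 4, so that the cortisol change at this probe was 0.59 on slide 3 and -0.44 on slide 4. At the probe from base 405 the CORT lambs ranged from 9.05 to 9.84 on slide 3 and from 8.83 to 9.05 on slide 4. The CCR10, CCR9 and IL4 probe pairs were also shifted by 1 base. Their later probe exceeded the earlier one by over 0.5 on 0 arrays of any slide. In the other direction, the later less the earlier probe gave -0.60 for CCR10 in Control fetus 2 and -0.80 for CCR9 in CORT lamb 2.

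**Figure D3:**
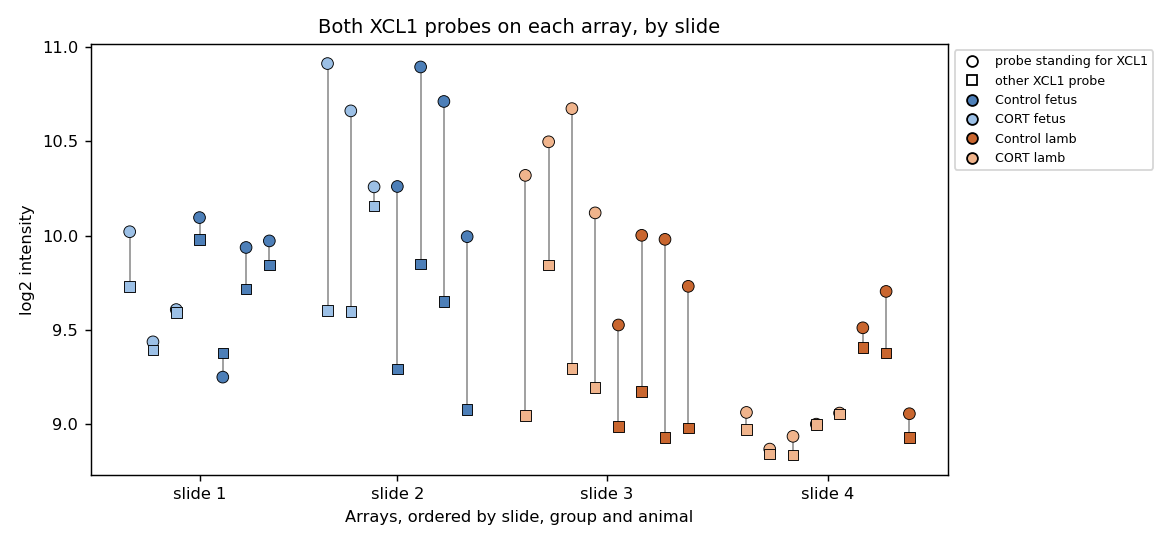
Log2 intensity (vertical axis) of the 2 XCL1 probes on each of the 30 arrays, ordered by slide, with circles for the probe from base 406, squares for the probe from base 405, and colours for the group. The 2 probes lie close together on slides 1 and 4 and apart on slides 2 and 3, with 1 array of slide 2 as the exception.

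Since each slide held 1 age, slide and age cannot be told apart for these changes beyond the spread between the 2 slides of an age. With slide as a random block, IL18 (adjusted p = 5.66e-06), IL1RN (6.81e-05), TNFRSF1A (0.00246), the IL15 probe from base 299 (0.00105), IL2RA at the dimmer probe (0.0162), TNF (0.0205) and the XCL1 probe from base 405 (0.0236) remained past the threshold. The separate IL18 record (0.0773) and both IL10 probes (0.0861 and 0.0893) did not. This fit takes 1 correlation within slides, common to all probes, and has only 2 slides per age. It therefore does not separate age from slide, nor measure a slide difference particular to 1 probe, such as that at XCL1.

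The sizes given depend on the background correction, which adds 50 to each corrected intensity and so narrows log2 changes of dim probes. With the intensity that the scanner software had corrected, without that addition, the log2 change was 1.49 (2.81-fold) for IL18, -2.32 (4.99-fold lower) for IL1RN, 0.77 (1.7-fold) for TNFRSF1A, 1.60 (3.04-fold) for the IL15 probe from base 299 and 1.39 (2.62-fold) for TNF. IL7, whose probe was well above background on no array, had a change of 0.12 (adjusted p = 0.0654) on the main scale and 0.85 (adjusted p = 0.00111) on this one.

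Members that were well above background on all arrays and did not pass included both probes of CCL25 and CCR10, the brighter CCR3 probe and IL3, with changes from -0.13 to 0.10. The main IL13RA1 probe had a change of 0.07 with an interval from -0.33 to 0.48, and TC15051 had a change of 0.23 (SE 0.11, adjusted p = 0.109). For CXCL8 the change was -0.12 (SE 0.08, adjusted p = 0.265).

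**Figure D4:**
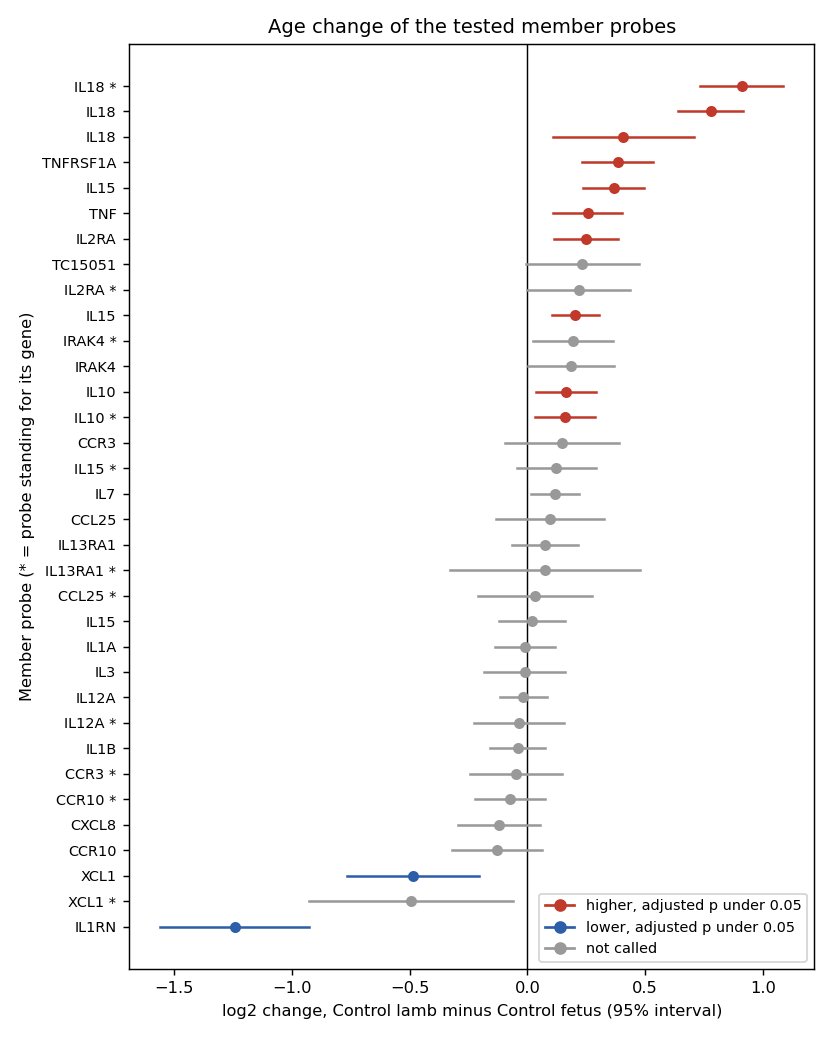
Log2 change from Control fetus to Control lamb (horizontal axis) of the 34 tested member probes (rows), with points for the limma estimate and lines for its 95% interval, red for the 10 called higher, blue for the 2 called lower and grey for the rest. An asterisk marks the probe standing for a gene with several tested probes. IL18 at 0.91 and IL1RN at -1.24 are at the ends.

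Some markers of other cells, and of adipocytes themselves, passed the age test in the same animals, where 42% of all tested probes did. The lists are short, so the account is of single genes. The striated muscle markers MB and TNNC2 and the mesothelium marker WT1 did not pass (adjusted p = 0.591, 0.559 and 0.453). Of 9 macrophage and monocyte markers 3 had a tested probe. FCER1G, a signalling chain of Fc receptors, rose by 0.83 (adjusted p = 1.49e-06) and CD14, a co-receptor for bacterial lipopolysaccharide, by 0.28 (adjusted p = 0.00548), while ITGAM gave 0.07 (adjusted p = 0.355). The mean level of these 3 markers ran from 7.88 to 8.07 in Control fetuses and from 8.16 to 8.55 in Control lambs. Among 4 neutrophil granule genes, the cathelicidins CATHL1B, CATHL3 and BAC5 had changes of -2.37, -1.98 and -2.39, all past the threshold, and LTF rose by 1.64. The mean level of the 4 granule genes was 6.77 to 9.85 in Control fetuses and 6.89 to 7.69 in Control lambs. The cathelicidin probes were well above background on all 8 Control fetuses but on only 3, 2 and 4 of 7 Control lambs, so that these sizes rest in part on values near background. Of 4 tested T cell markers, CD247 fell by 0.36 (adjusted p = 0.00777) and the other 3 did not pass. Of the other T cell markers CD4 had probes that were well above background on 0 of 30 arrays. Of 7 adipocyte markers, the brown fat uncoupling protein UCP1 fell by 4.28 (adjusted p = 1.6e-07), the lipoprotein lipase gene LPL rose by 1.70 (adjusted p = 3.9e-06) and the leptin gene LEP rose by 0.54 (adjusted p = 0.00752). Of 3 endothelial markers FLT1 fell by 0.37 (adjusted p = 0.000964), with 4 of 7 Control lambs well above background. The part that these cells had in the changes of IL18, IL1RN, TNFRSF1A, IL15 and XCL1 was not tested.

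Other genes of cytokine and innate immune signalling (adaptors, kinases and transcription factors, Toll-like receptors, and further ligands and receptors such as interferons and transforming growth factors) were read from a list of 67, of which 23 had a probe and 20 could be tested. With age 6 of the 20 rose and 2 fell, beside the 19.7% higher and 22.4% lower of all tested probes, so that their share called was close to that of the array. The median change over the 20 genes was 0.12. Those that rose included the transforming growth factors TGFB2 (1.02, adjusted p = 8.39e-05) and TGFB1 (0.37), the double-stranded RNA sensor TLR3 (0.57, adjusted p = 0.00102), the interferon receptor chain IFNAR2 (0.27) and the TNF receptor adaptor TRAF3 (0.22). NFKBIA, the inhibitor of NF-kappaB that is itself a target of it, fell by 0.52 (adjusted p = 0.0127), and STAT5A, which acts below IL2 family receptors, fell by 0.39 (adjusted p = 0.000939). MYD88, the adaptor that joins interleukin 1 family receptors to IRAK4, gave 0.00 (adjusted p = 0.978).

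Whether maternal cortisol changed these genes was asked within each age. In lambs, 9 CORT against 7 Control, limma called 0 of 34 member probes at an adjusted p under 0.05 and 0 at an unadjusted p under 0.05, where the shares over all tested probes were 0% and 3.62%. The log2 changes of the members ran from -0.28 to 0.16. On the main scale, the 95% interval lay within 0.5 of 0 on both sides for 31 of 34 probes, and the half-width of the intervals had a median of 0.19. That scale narrows log2 changes of dim probes, so for these a narrow interval does not exclude a larger change. Of the 15 probes well above background on all 30 arrays, 13 had such an interval. For the separate IL18 record, a dim probe, the change ran from -1.26 to -0.18 over the alternative ways of processing.

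The genes with the clearest age changes, IL18 and TNFRSF1A, which rose, and IL1RN, which fell, overlapped between the lamb groups. IL18 at the probe from base 557 had 7.81, 8.16 and 8.60 in CORT lambs (lowest, median, highest) beside 7.89, 8.18 and 8.37 in Control lambs, a change of 0.03 with an interval from -0.21 to 0.27. TNFRSF1A had 7.59, 7.99 and 8.55, a change of 0.08 (-0.17 to 0.33). IL1RN had 6.52, 7.11 and 7.29 in CORT lambs, a change of 0.11 (-0.12 to 0.34). The probe for the separate IL18 transcript record, which had been called higher with age, had the lowest change of the 34 members, -0.28 (SE 0.14, exact permutation p = 0.0719, adjusted p = 1.00). It was well above background on 3 of 7 Control lambs and 0 of 9 CORT lambs. With CORT lamb values set no lower than the dimmest level counted as well above background, the Control lamb mean was 1.21-fold higher. That figure holds no sampling error, and the interval of the log2 change, from -0.57 to 0.005, included 0.

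By the probe standing for each gene, the smallest p values in lambs were those of IL12A, IL1RN and IL13RA1. IL12A, a subunit of the interleukin that drives interferon production, had 6.34, 6.60 and 6.86 in CORT lambs and 6.41, 6.78 and 6.89 in Control lambs (change -0.11, SE 0.08, exact permutation p = 0.198). Its second probe gave -0.13 (SE 0.06), 6 of 9 CORT lambs lay below the lowest Control lamb, and the exact permutation p was 0.0313 against an adjusted p of 1.00 in the fit over all probes. That second IL12A probe was well above background on only 1 of 9 CORT lambs and 3 of 7 Control lambs, so its values lay near the floor of the scale. IL13RA1 gave 0.16 with an interval from -0.25 to 0.56, and a change of 0.55 on slide 3 beside -0.22 on slide 4. The direction of the cortisol change was opposite on the 2 slides of the lambs for 20 of 34 member probes.

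In fetuses, 6 CORT against 8 Control, limma again called 0 of 34 member probes at the adjusted threshold and 0 at the unadjusted one, beside 0% and 2.37% of all tested probes. Changes ran from -0.25 to 0.16, and on the main scale the interval lay within 0.5 of 0 for 32 of 34 probes. It did so for 14 of the 15 probes well above background on all 30 arrays. The limit given above for dim probes holds here too. IL18 had 7.12, 7.29 and 7.86 in CORT fetuses beside 6.99, 7.26 and 7.42 in Control fetuses (change 0.14, interval -0.09 to 0.38). IL1RN had 7.20, 8.06 and 8.19 beside 7.62, 8.17 and 8.75 (change -0.25, interval -0.67 to 0.16). TNFRSF1A had 7.39, 7.50 and 7.63 (change 0.01, interval -0.12 to 0.14).

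The smallest p values in fetuses, by the probes standing for genes, were those of CCL25, IL2RA and CCR10. CCL25, a chemokine of thymus and gut, had 7.91, 8.23 and 8.59 in CORT fetuses and 8.14, 8.46 and 8.73 in Control fetuses (change -0.20, SE 0.12, exact permutation p = 0.161). IL2RA gave 0.15 (SE 0.09, exact permutation p = 0.15), with 0.36 on slide 1 and -0.07 on slide 2. CCR10, the receptor of skin and mucosal homing lymphocytes, gave -0.09 (SE 0.06, exact permutation p = 0.105), and 4 of 6 CORT fetuses lay below the lowest Control fetus. Changes were opposite on the 2 slides of the fetuses for 19 of 34 member probes.

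The cortisol change in lambs less that in fetuses was tested as an interaction, which joins a difference of age with differences of dose and of continuous against overnight infusion. At the adjusted threshold 0 of 34 member probes passed, beside 0% of all tested probes, and at an unadjusted p under 0.05 there was 1 member beside 2.08%. That member was the dimmer IRAK4 probe, with a log2 change of 0.16 in fetuses, -0.10 in lambs and a difference of -0.26 (SE 0.11, adjusted p = 1.00). The brighter IRAK4 probe gave a difference of 0.03 (SE 0.12). IL1RN gave 0.36 (SE 0.22), IL2RA -0.20 (SE 0.13) and IL10 -0.10 (SE 0.10), none of which passed. Of the 20 genes of the signalling list, 0 passed in either cortisol comparison or in their difference, with 0 at an unadjusted p under 0.05.

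**Figure D5:**
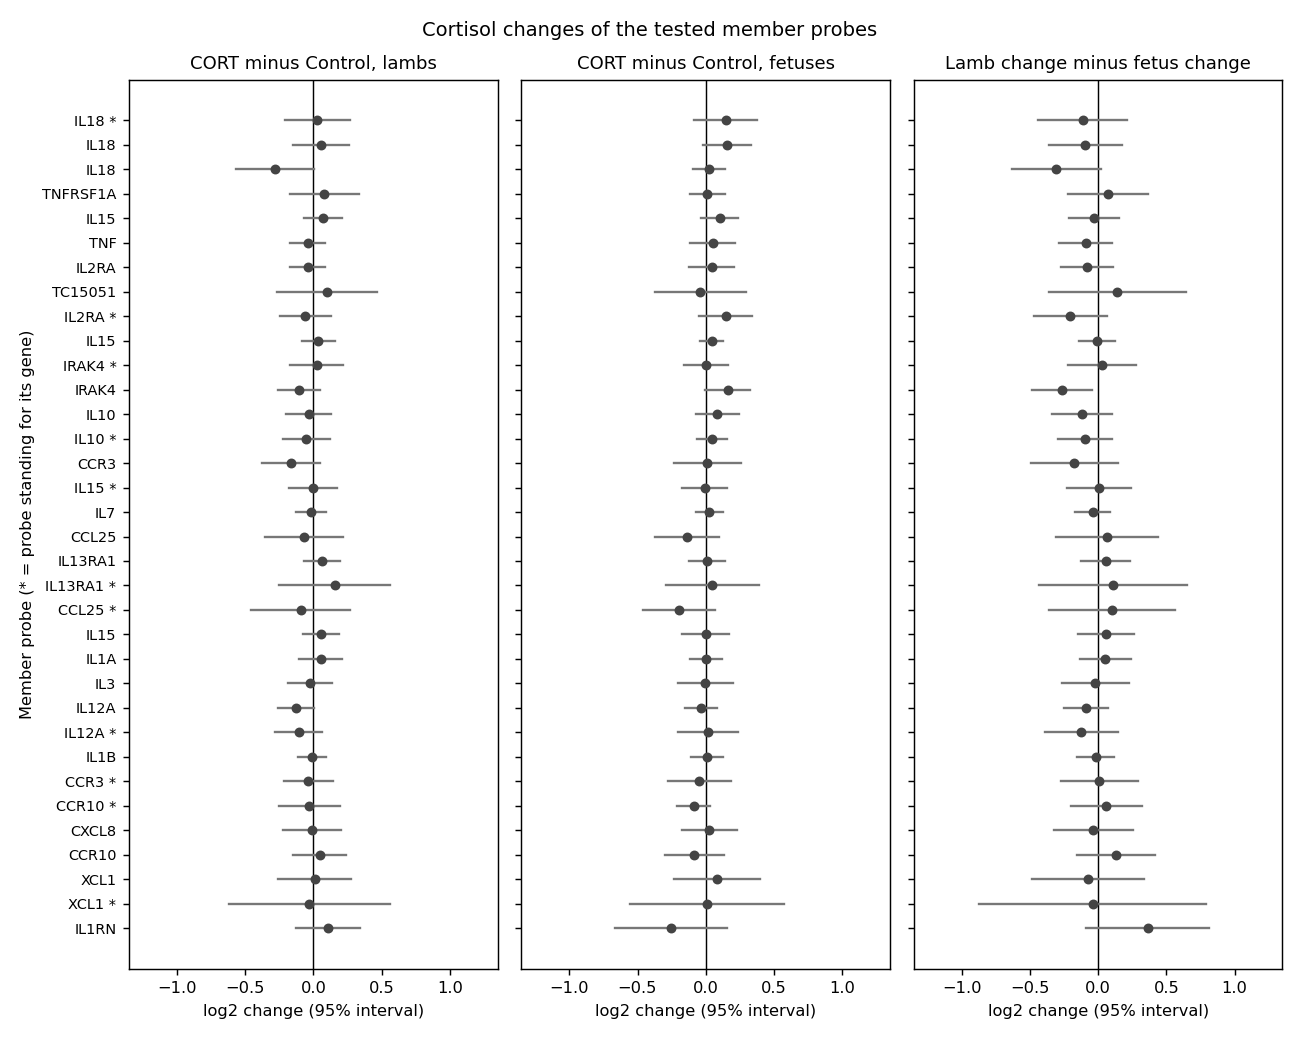
Log2 change with 95% interval (horizontal axis) of the 34 tested member probes (rows, in the order of their age change) for CORT minus Control in lambs, the same in fetuses, and the first less the second. No probe passed the adjusted threshold, and the interval misses 0 only for the dimmer IRAK4 probe in the third panel.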

How the data were processed

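Total RNA from EAT was labelled with Cy3 and hybridised to a 1-colour Agilent sheep array (labels). The authors deposited, per the file headers, the foreground and local background intensity of each spot from Feature Extraction 10.1.1.1, and a matrix of normalized log2 values. In that matrix the fetal columns did not follow the scanner intensities (Spearman rho across probes near 0), so it served only as an alternative for lambs. Median foreground intensity per array was 132 to 240 over a background of 34 to 46, which with the number of arrays limits precision.

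Background was corrected with normexp (offset 50) in limma 3.58.1 (R 4.3.3), outlier spots were removed, log2 intensities were quantile normalized over 30 arrays, and the spots of the 50 probes printed 5 times were averaged. A gene was represented by its probe with the highest mean. Named with values were genes past the adjusted threshold, the 3 smallest p per cortisol comparison, the 5 brightest genes and genes present in only some groups; other probes of those genes (IL15, IL2RA, XCL1), IRAK4, IL7, IL1B and CXCL8 were named after their values were seen. limma's lmFit and eBayes were fitted to all 12839 tested probes with Benjamini-Hochberg adjustment, two-sided, in the compared groups only. The procedure was tested on simulated data. Exact permutation tests used all splits of the compared animals. Alternatives were the scanner-corrected intensity, 75th percentile scaling, cyclic loess, other filters, array weights, all arrays in 1 fit, slide and replicate blocks, and each animal left out. The members and lists were chosen with earlier results of these data known. Of the 52 member probes, 51 matched a symbol of the reference gene table, and the B cell list matched no named probe. The values of 1 signalling gene are not reported here.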

Additional observations from a re-analysis of the deposited data

Results flagged for a closer look

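In 52 sets of values (13 named genes in 4 groups), 1 had an animal far from the others, where chance alone gives about 1 in 20. It was IL10 in CORT fetuses, in which CORT fetus 6 had a log2 intensity of 6.83 and the next highest animal 6.59, a gap of 0.83 of the range of the group. At the second IL10 probe the same animal differed by 0.00 from the mean of the other CORT fetuses.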

How the results depend on the processing

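The count of 10 higher and 2 lower member probes with age lay between 7 and 12 higher and between 2 and 3 lower under 8 of the 9 alternatives that keep all animals. The filter that asks for a probe well above background throughout a group left 21 members to test and 4 higher calls. Leaving out 1 animal gave 8 to 12 higher and 2 to 3 lower. In the 3 cortisol comparisons every alternative run gave 0 calls among the members. Blocking on the replicate number gave 8 higher and 2 lower with age and 0 in each cortisol comparison. The main fits did not pair animals by number. Correlations of same-numbered deviations ran from -0.23 to 0.41 and were not above 0.1 for every pair in any comparison. CORT lambs 2, 3, 6 and 7 correlated best with the Control lamb of their own number, while CORT lambs 1, 4 and 5 did not. Whether same-numbered lambs were related was not tested.

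Genes present in a group numbered 13 to 18 under the other detection rules and 13 to 15 with 1 animal left out. Genes above background on no array were fewer when the rule was brightness against the negative controls, 4 in Control fetuses, 7 in CORT fetuses, 6 in Control lambs and 5 in CORT lambs, and with the laxer flag, 0, 3, 0 and 1 in Control fetuses, CORT fetuses, Control lambs and CORT lambs. The brightness of these arrays over background limits the members that could be tested to 34 of 52.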

Other observations

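Probes of 1 transcript could differ widely in signal. The 2 contiguous IL13RA1 probes had medians of 10.27 and 6.66 over the 30 arrays, and were well above background on 30 and 25 arrays. The 2 CXCL8 probes, 40 bases apart, were well above background on 29 arrays and on 1. The 2 CCR3 probes, also 40 bases apart, were so on 30 and on 15. A count of arrays for a gene with 1 probe (IL1B, IL1RN, IL3, IL6, IL7, IL13, TNF, TNFRSF1A and TC15051) therefore rests on the choice of that probe.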
